A study of Mus musculus with 6 samples.

Results

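Protein-coding promoters whose chromatin was less accessible after loss of Cebpa and Cebpb were examined in MLL-ENL–transformed mouse cells. ATAC-seq, in which a transposase inserts sequencing adapters into open DNA, measured accessibility as the number of reads over a region. A region was taken when its nearer edge lay within 1 kb of the start site of a protein-coding transcript, its deposited level was lower in dKO than in WT, and both levels exceeded a floor of 2.99 times the lowest listed level. The regions were thus selected on the measured WT and dKO levels, and their differences are described with no test. Of 10016 listed regions, 1216 lay within 1 kb of such a start site and 547 of these had the lower level in dKO. After removal of 22 regions at or under the floor in dKO, 525 promoter regions remained, at 499 genes by nearest start site. The listed promoters with the higher level in dKO and both levels above the floor numbered 656.

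All cells were fetal liver cells from floxed mice, transformed with the MLL-ENL fusion oncogene and grown with interleukin 3. WT cells kept intact Cebpa and Cebpb, and their labels name no vector. The dKO cells lacked Cebpa and Cebpb and expressed GFP. A further group, dKO cells with GFP and the rat CEBP/b isoform LAP*, was not analysed here. The dKO lines were clones that survived the deletion, so genotype, clone and vector cannot be told apart in the comparison. The listed level was the authors' mean over 2 libraries of each group, without values for single libraries, so that no spread between replicates can be given. Only regions past the authors' threshold were listed, and the cell type could therefore not be checked against the accessibility of its marker genes. In bulk cells, a lower level in every cell cannot be told apart from fewer cells with an open promoter.

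An active promoter is held free of nucleosomes at its start site, where general transcription factors and RNA polymerase assemble. Promoters rich in CpG dinucleotides serve housekeeping and developmental genes and are often open in many cell types, whereas CpG-poor promoters serve more tissue-restricted genes. C/EBPα and C/EBPβ are basic leucine zipper factors of the myeloid lineage that bind a palindromic site at promoters and enhancers.

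The promoters differed in whether they held the C/EBP consensus, here TTGCNNAA or TTACNNAA on either strand within 200 bp about the region centre. A total of 82 of the 525 lower promoters held it. The sequences of the 5 with the largest difference are shown because they place the consensus against the start site. They were taken in order of the difference where no more than 30 bases were annotated as UTR. Sequences are from GRCm38.p6, the assembly of mm10, written 5′ to 3′ on the strand of the gene, with every match to the consensus in capitals.
Ppfibp2, chr7:107594707-107594790, plus strand: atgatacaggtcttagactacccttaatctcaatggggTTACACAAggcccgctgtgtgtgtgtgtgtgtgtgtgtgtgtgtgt
Fam181a, chr12:103311993-103312076, plus strand: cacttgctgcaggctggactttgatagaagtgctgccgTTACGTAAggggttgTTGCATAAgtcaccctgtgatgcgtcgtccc
Timd2, chr11:46707064-46707147, minus strand: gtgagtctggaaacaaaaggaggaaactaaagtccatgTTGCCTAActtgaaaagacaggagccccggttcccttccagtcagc
Acoxl, chr2:127854396-127854479, plus strand: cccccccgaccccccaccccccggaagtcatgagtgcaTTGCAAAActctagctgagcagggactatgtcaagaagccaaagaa
Srpk2, chr5:23683583-23683666, minus strand: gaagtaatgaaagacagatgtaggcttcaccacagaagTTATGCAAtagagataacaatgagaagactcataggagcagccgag
The consensus lay 518 bp upstream of the start site at Ppfibp2, which encodes a liprin, and 190 bp upstream at Acoxl, an acyl-CoA oxidase-like gene. In the stretch shown it lay 46 bp upstream at Timd2, a receptor of the TIM family, whereas it was 976 bp downstream at Srpk2, a kinase of splicing factors. At Fam181a the first match was 1060 bp downstream, with another a few bases beyond it. Outside the stretches shown, the windows held 2 further matches upstream at Ppfibp2 and 1 downstream at Timd2.

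The full palindrome TTGCGCAA was present in 2 of the 525 lower promoters, and both are shown for this reason, with the palindrome in capitals.
Orm1, chr4:63344401-63344484, plus strand: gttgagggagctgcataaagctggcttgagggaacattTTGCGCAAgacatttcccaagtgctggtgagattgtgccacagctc
Gpr153, chr4:152274988-152275071, plus strand: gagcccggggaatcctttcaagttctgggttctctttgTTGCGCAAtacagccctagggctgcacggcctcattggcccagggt
At Orm1, which encodes the acute-phase protein α1-acid glycoprotein and has a promoter known to bind C/EBPβ, the palindrome lay 118 bp upstream of the start site. The Orm1 region had a log2 level of 7.90 in WT and 7.08 in dKO. At Gpr153, an orphan G-protein coupled receptor gene, the palindrome lay 668 bp downstream, and the levels were 6.30 and 4.50.

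The 3 promoters with the largest differences did not hold the C/EBP consensus in their window. Their 120 bases upstream of the start site are shown because they are dense in CG dinucleotides, which are in capitals.
Lrig1, chr6:94700146-94700265, minus strand: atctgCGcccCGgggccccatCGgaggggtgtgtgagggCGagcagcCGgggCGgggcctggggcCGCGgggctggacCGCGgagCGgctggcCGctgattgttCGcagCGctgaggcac
Kctd15, chr7:34655510-34655629, minus strand: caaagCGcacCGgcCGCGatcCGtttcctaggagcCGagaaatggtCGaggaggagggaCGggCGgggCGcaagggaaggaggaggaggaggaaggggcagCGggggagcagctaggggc
Cebpb, chr2:167688795-167688914, plus strand: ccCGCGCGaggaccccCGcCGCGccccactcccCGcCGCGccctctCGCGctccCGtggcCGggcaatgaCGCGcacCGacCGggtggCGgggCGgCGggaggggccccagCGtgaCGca
These stretches held 14 CG dinucleotides at Lrig1, 11 at Kctd15 and 22 at Cebpb.

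The 525 lower promoters were open in WT and spanned a wide range of residual levels in dKO. The log2 level in WT had a median of 6.64, with quartiles of 5.83 and 7.63 and a range of 4.32 to 10.94. In dKO the median was 4.81, with quartiles of 3.61 and 6.28 and a range of 1.44 to 10.38. The difference, dKO minus WT, had a median of -1.59, or 3.01-fold lower, with quartiles of -2.34 and -1.07 and extremes of -5.92 and -0.53. Over all 10016 listed regions, 37.4% were lower in dKO with both levels above the floor, and among the 1181 listed promoters above the floor the share was 44.5% (Wilson 95% interval 41.6 to 47.3). Since the rule and the listing both used this contrast, nothing is read from these shares.

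**Figure D1:**
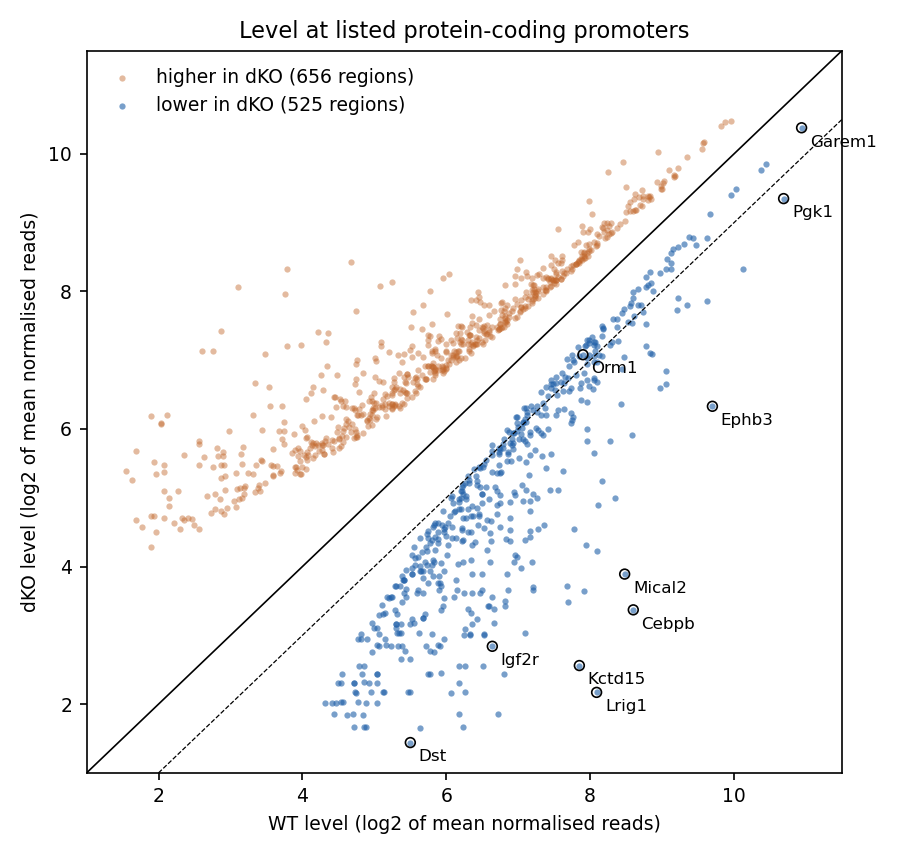
WT level (x axis) against dKO level (y axis), both as log2 of the authors' mean normalised reads, for 525 promoter regions lower in dKO (blue) and 656 higher in dKO (orange). The solid line marks equal levels and the dashed line a level 2-fold lower in dKO. Lower promoters with little residual signal in dKO lie at the bottom, and Garem1 and Pgk1, with the highest WT levels, lie close to the lines.

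A level at least 2-fold lower was found at 422 of the lower promoters (80.4%), against 89.7% of all listed regions that were lower with both levels above the floor. It was at least 4-fold lower at 180 promoters (34.3%) and at least 8-fold lower at 63. The size went with the WT level. The 90 promoters with a WT level of at least 8 had a median difference of -0.90, and the 159 with a WT level under 6 had one of -2.07. A weakly open region needs a larger difference to pass the authors' threshold, and the part of that threshold in this relation was not tested.

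The largest difference was at Lrig1, a membrane protein that restrains ErbB receptor signalling. Its promoter had a log2 level of 8.09 in WT and 2.17 in dKO, 60.5-fold lower. Taking the lowest listed level as the worth of 1 read, the 95% counting interval of the difference was -6.99 to -5.03, which covers counting error only. Kctd15, a BTB-domain protein that inhibits the factor AP-2, had levels of 7.85 and 2.56. Mical2, an enzyme that oxidises actin filaments, had levels of 8.48 and 3.89. All 3 regions covered the start site.

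Cebpb, one of the deleted genes, had the next difference in size after Lrig1 and Kctd15. The region over its start site (chr2:167688638-167689380) had a level of 8.60 in WT and 3.37 in dKO. A separate region centred 1036 bp downstream had a level of 7.38 in WT and the lowest listed level, -0.15, in dKO, and was removed by the floor, as was the Cebpa promoter with 9.99 in WT and -0.15 in dKO. At these genes loss of DNA and loss of accessibility cannot be told apart. Cebpe, the family member that acts late in granulocyte development, had a promoter that was higher in dKO by 0.64.

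Of the 22 promoters under the floor in dKO, Cebpa had the highest WT level. The group also held Tmem185a, with a WT level of 6.16 and -0.15 in dKO, and Pax5, a B cell transcription factor, with 4.71 and 1.16. Against the floor, the difference at Tmem185a was at least 4.73 log2 units.

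The other promoters among the 15 with the largest differences belonged to genes of various functions. Smad1, which carries signals from BMP receptors, had a level of 7.09 in WT and 3.03 in dKO. Scube1, a secreted EGF-domain protein, had 6.80 and 2.43. Nectin1, an adhesion molecule of cell junctions, had 6.18 and 1.85 in a region upstream of its start and 7.36 and 4.60 over the start itself. Cytoskeletal genes included Dst, a linker of cytoskeletal filaments, with 5.50 and 1.44, and Ttll7, a tubulin glutamylase, with 6.51 and 2.55. Cers4, a ceramide synthase gene with 7.68 and 3.72, had the same difference as Ttll7, -3.96. Cecr2, a bromodomain protein of a chromatin remodelling complex, had 7.69 and 3.49. The remaining ones were Zcchc14, Cox6b2, Ppfibp2, Casc4 and the zinc-finger factor gene Klf8, with dKO levels between 1.65 and 3.65.

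**Figure D2:**
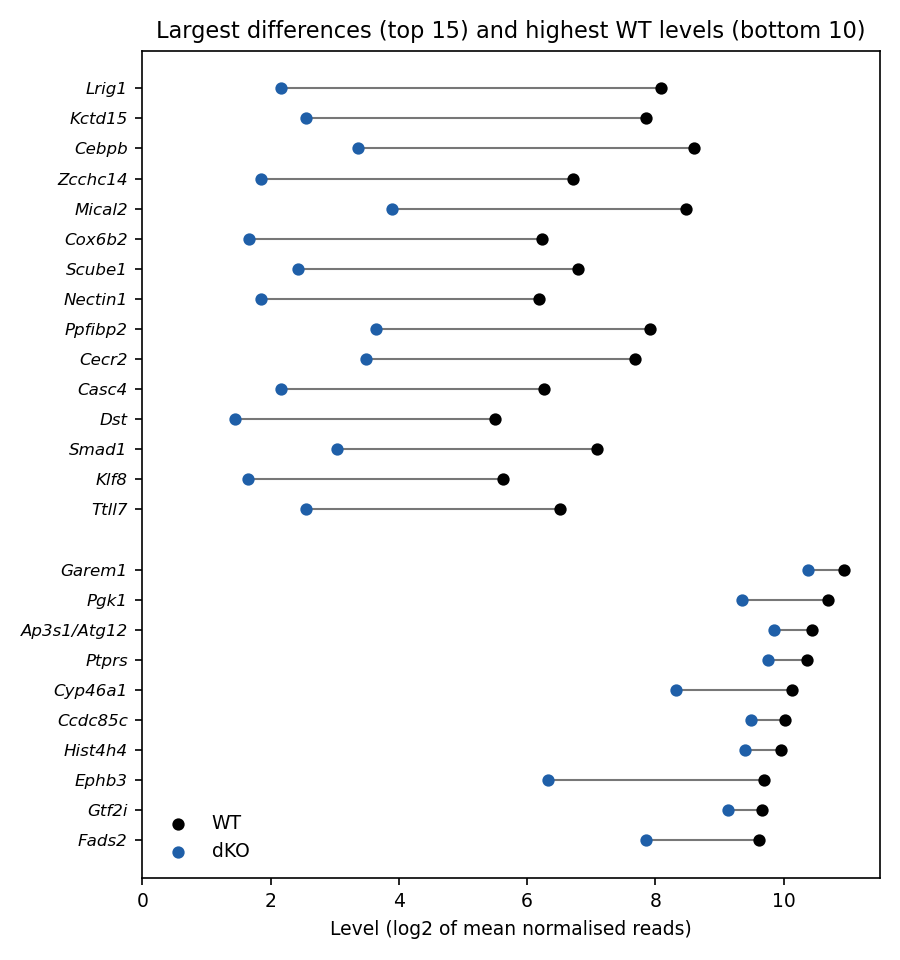
Levels in WT (black) and dKO (blue), as log2 of the authors' mean normalised reads (x axis), for the 15 lower promoters with the largest difference and the 10 with the highest WT level. In the lower set most pairs of points lie close together, whereas Ephb3 spans 9.70 to 6.33.

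The 10 lower promoters with the highest WT levels are those left after the floor, which removed Cebpa at 9.99. Garem1, an adaptor of growth factor receptors, had 10.94 in WT and 10.38 in dKO. Pgk1, the phosphoglycerate kinase of glycolysis, had 10.69 and 9.35, a 2.53-fold difference with a counting interval of -1.43 to -1.25. Ephb3, an ephrin receptor, had the largest difference in this set, with 9.70 and 6.33, or 10.3-fold lower. Cyp46a1, which hydroxylates cholesterol, had 10.13 and 8.32. The other members of the set, Ap3s1 with Atg12, Ptprs, Ccdc85c, Hist4h4 and Gtf2i, had differences between -0.61 and -0.53, and Fads2 had -1.76. Smurf1 shared the WT level of Fads2, 9.62, with 8.78 in dKO.

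Promoters just inside the floor and the distance limit were close in value to those just outside. This did not hold for the difference, since regions that did not pass the authors' threshold were not listed. The smallest differences were -0.53 at Zfp667 and at Gtf2i and -0.54 at Rpl36a, and the smallest with the opposite sign was 0.49 at Pofut2. The lowest dKO levels kept were 1.44 at Dst and 1.65 at Klf8, and those removed next were the floor itself at Lonp2 and 1.42 at Chit1, Itpr1 and Stra6. The farthest edge kept was 988 bp from a start site, at Mxi1, and the nearest left out was 1004 bp, nearest to Cenpc1.

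The share of regions over a start site did not differ past the threshold between lower and higher promoters. The region covered a protein-coding start site in 373 of 525 (71.0%) lower and 460 of 656 (70.1%) higher promoters (odds ratio 1.05, Fisher's exact test, adjusted p = 0.881 over 4 features). The median centre lay 18 bp upstream of the start site, and 357 lower promoters (68.0%) were centred within 250 bp of it. Of the 152 regions beside the start site, 78 were upstream and 74 downstream. A start site more than 1 kb downstream of the outermost protein-coding start of its gene was used by 116 lower promoters (22.1%) and 158 higher ones (24.1%). Pairs of divergent protein-coding genes shared 8 lower and 19 higher promoters (Fisher's exact test, adjusted p = 0.338).

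**Figure D3:**
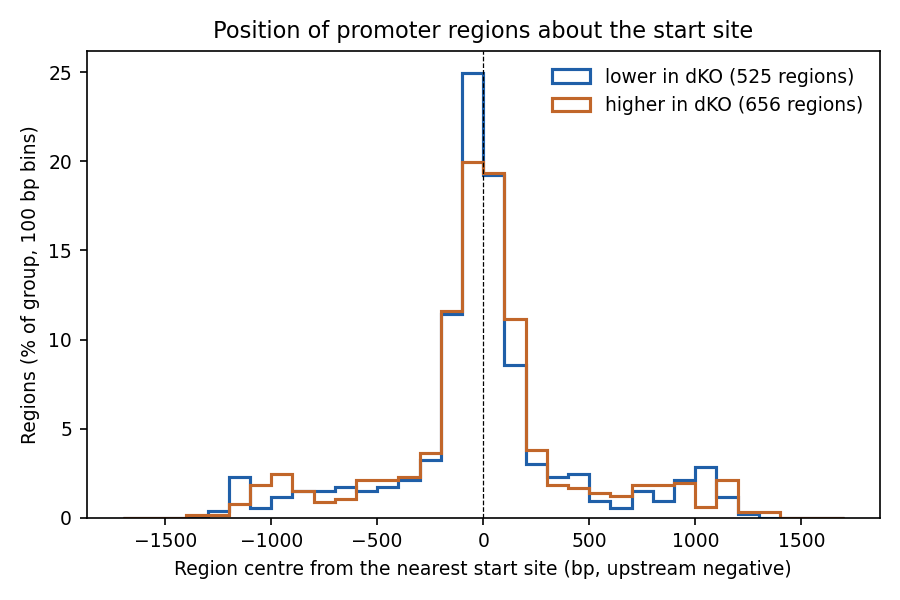
Distance of the region centre from the nearest protein-coding start site (x axis, bp, upstream negative) as percent of each group in 100 bp bins (y axis), for 525 lower (blue) and 656 higher (orange) promoters. Both groups peak at the start site, with 68.0% of lower and 65.9% of higher promoters centred within 250 bp.

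Lower promoters were found at CpG-rich and at CpG-poor start sites. A start site was called CpG-rich when the observed to expected CpG ratio in 1 kb about it was at least 0.6. By this measure 283 of 525 lower (53.9%) and 324 of 656 higher promoters (49.4%) were CpG-rich (odds ratio 1.20, Fisher's exact test, adjusted p = 0.338). With the ratio taken in 200 bp about the region centre, the shares were 56.6% and 48.5% (exact test as before, adjusted p = 0.0236). CpG-rich lower promoters were more open in WT, with a median level of 6.92 against 6.32 at CpG-poor ones, and had a median difference of -1.46 against -1.71. The window about the region centre had a median GC content of 64.5% at lower promoters, 58.0% at higher promoters and 50.0% at lower distal regions.

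The C/EBP consensus was found in 82 of 525 lower promoters (15.6%, Wilson 95% interval 12.8 to 19.0) and 79 of 656 higher promoters (12.0%, 9.77 to 14.8). The odds ratio was 1.35 (Fisher's exact test, adjusted p = 0.197 over 18 motifs). Among windows of the same length at all 54088 annotated protein-coding start sites, 9.42% held it. As the lower promoters were richer in GC, the comparison was repeated within 5 strata of GC content, where the common odds ratio was 2.15 (exact conditional test, adjusted p = 0.000308). With start sites within 2 kb the odds ratio was 1.80 (Fisher's exact test, adjusted p = 0.000185), and with regions that covered the start site it was 0.951 (adjusted p = 1). The call thus changed with base composition and with the distance allowed.

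The consensus was rarer in lower promoters than in distal regions that were lower in dKO and more than 1 kb from every annotated start site. It was present in 1347 of these 2957 regions (45.6%), giving an odds ratio of 0.221 for promoters against distal regions (Fisher's exact test, adjusted p = 1.40e-40). Within strata of GC content the odds ratio was 0.554 (exact conditional test, adjusted p = 0.000238). The strata did not fully match base composition, since in the one richest in GC, which held 373 of the lower promoters, the median GC content was 68.5% at promoters and 59.5% at distal regions. In the next to poorest stratum 10 of 16 promoters (62.5%) and 53.5% of distal regions had the consensus. In every other stratum the share was lower at promoters. It was 47.1% against 62.2% in the stratum poorest in GC and 7.77% against 18.8% in the richest. Since regions are no substitute for replicate cultures, the p-values speak only of the regions in this list.

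The share of lower promoters with the consensus varied with sequence class and position. It was present in 12 of 224 regions over a CpG-rich start site (5.36%), in 26 of 149 over a CpG-poor start site (17.4%) and in 44 of 152 beside the start site (28.9%). Among higher promoters the shares were 5.75%, 17.1% and 15.3%, and the difference between the groups was not tested within these classes. Of the 90 promoters with a WT level of at least 8, 2 held it. The 82 promoters with the consensus had a median level of 6.05 in WT and 4.40 in dKO and a median difference of -1.72, and the 443 without it had 6.74, 4.98 and -1.58. Of 97 matches in these promoters, 55 were upstream of the start site.

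Motifs of AP-1 and PU.1 separated lower from higher promoters. AP-1 joins FOS and JUN proteins and was searched as TGACTCA or TGAGTCA, which on opposite strands are the same site. It was present in 7 of 525 lower promoters (1.33%) and 67 of 656 higher promoters (10.2%), with an odds ratio of 0.119 (Fisher's exact test, adjusted p = 3.82e-10) and a share of 2.71% over all start-site windows. PU.1, a master factor of myeloid cells, was searched as GAGGAAGT and was present in 7 lower (1.33%) and 48 higher promoters (7.32%), with an odds ratio of 0.171 (exact test, adjusted p = 4.15e-06) and a share of 2.01% over all start-site windows. Both comparisons passed the threshold in all 4 alternatives run, 2 of them added after seeing the data, including the one within strata of GC content. The same direction was seen away from promoters, where AP-1 was present in 5.28% of lower and 28.9% of higher distal regions and PU.1 in 3.96% and 14.5%.

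The other 15 motifs, the C/EBP palindrome included, did not pass the threshold between lower and higher promoters. The GC box GGGGCGG, the site of SP factors, was present in 151 lower (28.8%) and 147 higher promoters (22.4%, exact test, adjusted p = 0.0909), in 2.98% of lower distal regions and in 22.8% of all start-site windows. Within strata of GC content the GC box odds ratio went from 1.40 to 1.08 (exact conditional test, adjusted p = 0.834). The RUNX site AACCACA was present in 3.24% and 6.10% (exact test, adjusted p = 0.126). The composite TGATGNAA of C/EBP and ATF factors was present in 18 lower (3.43%) and 13 higher promoters (1.98%, exact test, adjusted p = 0.242), against 11.7% of lower distal regions and 2.08% of all start-site windows. Within strata of GC content its odds ratio went from 1.76 to 2.80 and passed the threshold (exact conditional test, adjusted p = 0.0428). A match is a description of the letters and does not show that a factor bound there.

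**Figure D4:**
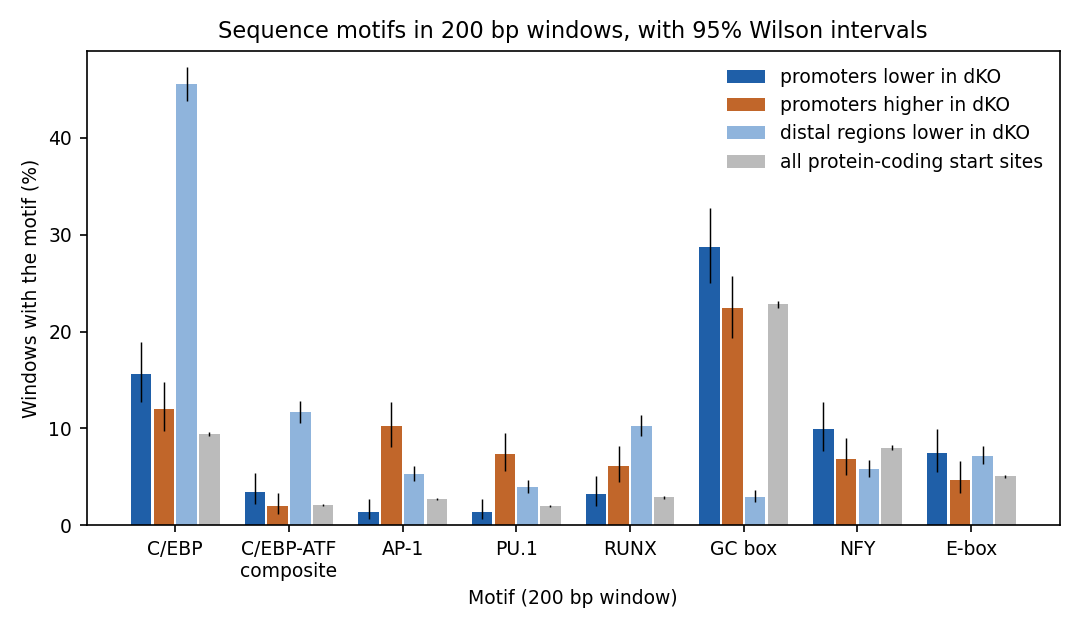
Percent of 200 bp windows with each motif (y axis) in 525 promoters lower in dKO, 656 promoters higher in dKO, 2957 distal regions lower in dKO and 54088 annotated protein-coding start sites, with Wilson 95% intervals as error bars. AP-1 and PU.1 are each at 1.33% in lower promoters, and C/EBP is at 45.6% in lower distal regions against 15.6% in lower promoters.

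Genes of the lower promoters were set against lists written with earlier results of these data known. Of 21877 annotated protein-coding genes, 517 (2.36%) had a lower promoter and 633 (2.89%) a higher one, counting every gene with a start site within 1 kb. Lipid and cholesterol metabolism had 6 genes of 39 with a lower promoter and 1 with a higher one, Cpt1a. Fads2, a desaturase of polyunsaturated fatty acids, had 9.62 in WT and 7.86 in dKO. The differences at Abca1, a cholesterol exporter, Scd1, a desaturase of saturated fatty acids, Lpcat1 and Acsl4 were -1.07, -1.05, -0.99 and -0.60. The median difference of the list was -1.06, smaller in size than the -1.59 of all lower promoters.

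Cytokine and growth factor receptors had 5 of 44 genes with a lower (11.4%, beside 2.36% of all protein-coding genes, not tested) and 3 with a higher promoter. Igf2r, an imprinted gene for the receptor that removes IGF2 and carries lysosomal enzymes, had 6.64 in WT and 2.84 in dKO, 13.9-fold lower. Il10ra, the ligand-binding chain of the interleukin 10 receptor, had 4.96 and 2.17 over its start site and 4.77 and 2.03 in a downstream region. Il2ra, Ifnar2 and Il1r1, which are chains of the interleukin 2, type I interferon and interleukin 1 receptors, had differences of -2.18, -1.73 and -1.71. The median over the 6 regions was -2.46.

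The monocyte, neutrophil, haematopoietic factor and adhesion lists had 1 to 3 genes each with a lower promoter, too few to set their shares apart from the 2.36% of all protein-coding genes. Of 43 monocyte and macrophage genes, 1 had a lower promoter (2.33%), the lipid receptor gene Trem2 with 6.00 in WT and 4.44 in dKO, and 7 had a higher one. Of 34 neutrophil genes, 1 had a lower promoter (2.94%), the surface glycoprotein gene Cd177 with 5.30 and 3.10, and 5 had a higher one. Of 79 haematopoietic transcription factors, 3 had a lower promoter (3.80%) and 13 a higher one. These 3 were Bach2, a repressor of lymphoid cells, with 4.90 and 2.95, Klf13 with 4.82 and 2.94, and the retinoid receptor gene Rxra with 5.52 and 4.17. Integrins, selectins and adhesion genes had 1 of 34 lower (2.94%), Itga1, and 5 higher.

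No lower promoter above the floor was found in 12 lists, at a background of 2.36% of genes that gives few or none in lists of this size. These were innate sensing, NF-κB subunits, JAK, STAT and SOCS genes, chemokines, the BCL2 family, cyclins and CDKs, and marker genes of mast, erythroid, T and B cells, together with proteasome and mitochondrial complex I subunits. None of them had more than 3 genes with a higher promoter. Pax5, of the B cell list, was lower but under the floor in dKO. Ribosomal protein genes had 2 lower promoters among 92 (2.17%), Rps23 and Rpl36a, with differences of -0.62 and -0.54.

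Other lists were counted in the same way, beside 2.36% of all protein-coding genes with a lower promoter, and no share was tested. HOXA cluster genes and their cofactors had 2 of 18 with a lower promoter (11.1%) and 4 with a higher one. Hoxa3, a homeobox gene of the cluster, had 8.66 in WT and 7.80 in dKO, and Pbx4, of the PBX cofactor family, had 9.43 and 8.77. Regulators of G proteins and cAMP had 4 of 40 lower (10%) and 3 higher. Of these, Rgs3, which ends G-protein signals, had 6.49 and 3.66, and Gnas, the stimulatory G-protein subunit, had 8.05 and 6.97 in one region and 7.41 and 6.48 in another. Glycolysis had 2 of 36 lower (5.56%), Pdk2 and Pgk1, and 2 higher. Solute carriers had 8 of 371 lower (2.16%) and 12 higher, and zinc-finger genes named Zfp 9 of 365 lower (2.47%) and 12 higher. Both shares were near that of all protein-coding genes. Of 38 genes that the study names, a list that is not independent of these samples, 1 had a lower promoter (2.63%), Igf2r, and 7 had a higher one.

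Chromatin and DNA methylation regulators had 2 of 68 genes with a lower promoter (2.94%, beside 2.36% of all protein-coding genes) and 4 with a higher one. Dnmt3a, a de novo DNA methyltransferase, was the gene with most lower regions. Its 3 regions, at start sites more than 1 kb downstream of the outermost start, had levels of 8.47 and 7.05, 7.11 and 5.52, and 7.09 and 5.83 in WT and dKO. In all, 25 genes had more than 1 lower region. Clu, a secreted chaperone, had one of them over its outermost start, with 6.94 and 5.08, and one over an internal start, with 6.07 and 2.16. Ak4, an adenylate kinase of mitochondria, had 5.95 and 3.43 and, in a neighbouring region, 5.15 and 2.94.

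Further lists were chosen after the values had been seen and support nothing on their own. The Wnt and planar polarity pathway had 9 of 87 genes with a lower and 6 with a higher promoter. The cell polarity genes Celsr1 and Vangl2 had 7.19 and 4.06, and 6.34 and 3.32. The TGF-beta and BMP pathway had 7 of 51 lower, Smad1 among them, and 2 higher. Notch and Hedgehog genes had 4 of 43 lower and 0 higher, among them the Notch ligand gene Jag1 with 9.05 in WT and 6.66 in dKO and the Hedgehog receptor gene Ptch1 with 7.33 and 5.61. Imprinted genes had 6 of 55 lower and 3 higher, with Naa60 in both.

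Gene families chosen in the same way were serpins, with 6 of 62 lower and 2 higher, myosin heavy chains, with 5 of 38 and 1, potassium channel genes, with 5 of 94 and 2, and olfactory receptors, with 2 of 1143 (0.175%) and 8. Serpina3g, a protease inhibitor of haematopoietic cells, had 6.52 in WT and 3.01 in dKO. It lies on chromosome 12 with 3 other lower members of the family, Serpina1f, Serpina3f and Serpina11. Kcnk5, a background potassium channel, had 8.10 and 4.22, and Myh14, a non-muscle myosin, had 8.97 and 6.59.

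**Figure D5:**
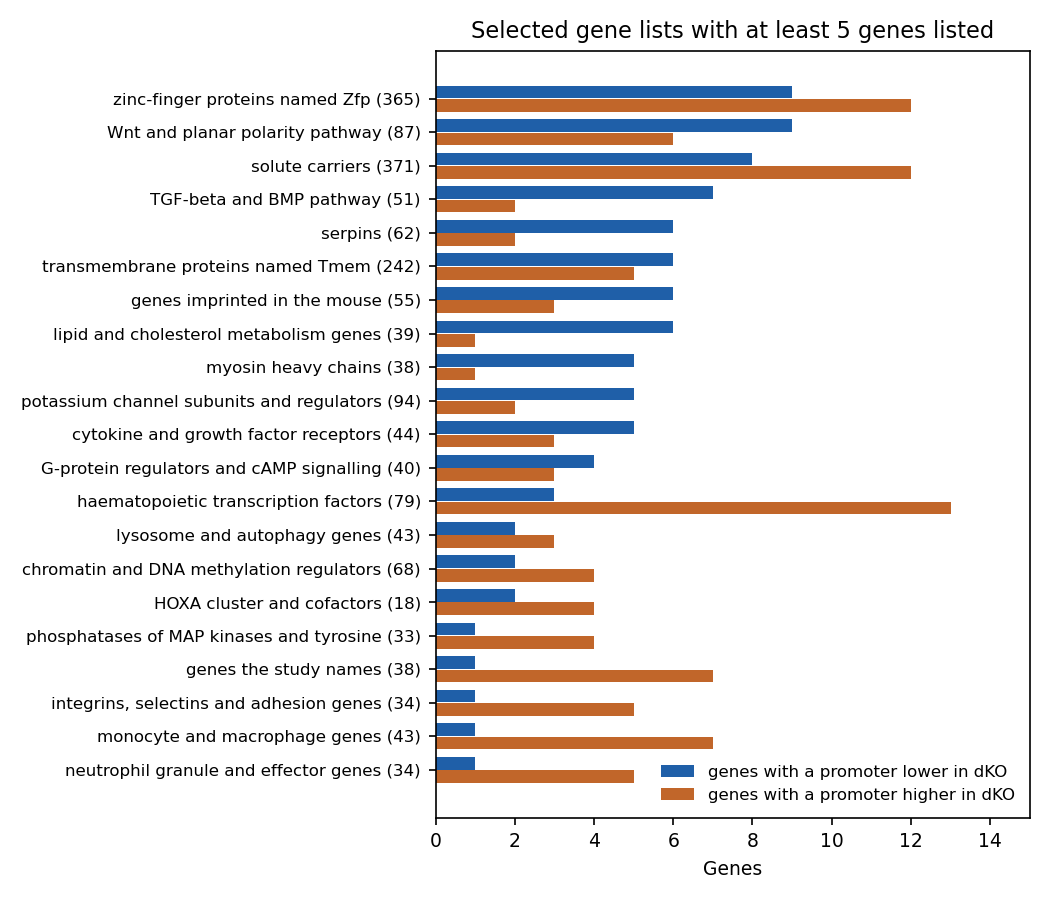
Number of genes (x axis) with a promoter lower (blue) or higher (orange) in dKO for gene lists with at least 5 such genes, with the number of annotated list genes in parentheses. Lipid and cholesterol metabolism had 6 lower and 1 higher, and haematopoietic transcription factors 3 lower and 13 higher.

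A total of 4 genes had both a lower and a higher promoter region. Rbfox2, a splicing regulator, had 8.06 in WT and 5.65 in dKO at one start site and 5.60 and 7.11 at another. Ccdc102a had 7.99 and 6.63 close to its start and 3.97 and 5.34 in a region centred 742 bp downstream. At Rin1 and Naa60 the opposed differences were -0.72 and 0.83, and -1.04 and 0.74.

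Neighbouring listed regions mostly had the same direction. Another listed region lay within 10 kb of 107 lower promoters (20.4%), and at 88 of these every such neighbour was lower. For higher promoters these counts were 227 (34.6%) and 219 with higher neighbours only. Over all listed regions, 37.4% were lower in dKO with both levels above the floor. Some neighbours were further regions at the same gene, since 51 of the lower regions lay at 25 genes. Within 50 kb, 307 lower promoters had a listed neighbour, with lower neighbours only at 218, higher only at 65 and both at 24. Afap1, an actin filament-binding protein gene on chromosome 5, had 8 lower and 0 higher neighbours within 50 kb. Its level was 9.05 in WT and 6.84 in dKO. The Sox12 and Zcchc3 promoters on chromosome 2 each had 6 lower neighbours, and Sox12, a SOXC-group factor gene, had 8.28 and 5.82 upstream of its start and 7.16 and 4.96 over it.

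Lower promoters were spread over all 19 autosomes and the X chromosome. They made up between 29.0% (chromosome 17) and 65.5% (chromosome 6) of the listed promoters of a chromosome, except for chromosome 10 with 19 lower and 102 higher (15.7%, Wilson 95% interval 10.3 to 23.2). Without chromosome 10 the share of lower promoters was 47.7% in place of 44.5%. Its part in the comparisons above is given by the values without it: the AP-1 odds ratio was 0.111, that of PU.1 was 0.163, and that of the C/EBP consensus was 1.28 (exact test, adjusted p = 0.347). The GC box passed the threshold without this chromosome, with an odds ratio of 1.57 (exact test, adjusted p = 0.0122). Within strata of GC content, over all chromosomes, it did not pass (odds ratio 1.08).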

How the data were processed

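ATAC-seq libraries were made from 50,000 sorted cells each. Per the paper's methods, the authors used PiGx for the reads, Bowtie 2 for alignment to mm10, MACS for peaks and DiffBind 2.14.0 for the comparison of groups. Handling of duplicates and of the transposase offset was not stated, and kept duplicates would raise strongly amplified regions. The authors deposited log2 values, namely mean normalised reads of all libraries, of WT and of dKO. The 3 columns of their own comparison (fold change, p-value and FDR) were not used. The 2 processed files had identical content, with 0 columns for single libraries.

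Start sites came from GENCODE M21 and sequences from GRCm38.p6. Members, motifs and gene lists were chosen with earlier results of these data known. The WT and dKO group means, each over 2 libraries, were compared by subtraction. For motif shares and start-site features, two-sided Fisher's exact tests were used, adjusted by Benjamini-Hochberg over 18 motifs or 4 features (threshold 0.05), with scipy 1.17.1, pysam 0.24.0 and pandas 2.3.3 under Python 3.11.15. The tests were checked on simulated data. Depth per library was not part of the table. The lowest listed log2 level, -0.15 (0.901 normalised reads), was taken as 1 read, and the floor is 2.99 times that. Counting intervals are exact Clopper-Pearson intervals at 95% and, like all intervals here, cover counting error only. P-values over regions do not measure the spread between cultures.

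Genes were named if they were among the 15 largest differences or 10 highest WT levels, in a gene list (the 5 largest differences), at several regions, in both directions, nearest to a threshold, or with the C/EBP palindrome. Others were chosen after their values were seen (promoters under the floor, neighbours, added lists and the CG-rich sequences). Some items are not reported here. Alternatives were the distance limit, annotation, floor, minimum difference, zero point, motif window and form, GC strata and 1 region for each gene. Added after seeing the data were leaving out chromosome 10, 1 region for each gene for motifs other than C/EBP, and 400 bp for promoters against distal regions.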

Additional observations from a re-analysis of the deposited data

How the results depend on the processing

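No paired analysis was possible because only group means were given, and for the same reason no library could be left out. The number of lower promoters was between 373 and 774 under the alternatives run, within 1.5 times of 525. The share of lower promoters was 51.7% with a minimum difference of 1, 47.7% without chromosome 10 (chosen after seeing the data), and 65.9% when differences were centred on the median of all listed regions, 0.98, since 249 promoters with smaller rises then counted as lower. For the C/EBP consensus in lower against higher promoters, the odds ratio was 1.80 with start sites within 2 kb, 2.15 within GC strata, 0.951 where the region covered the start site and 0.990 when the whole region was searched. The CpG-rich odds ratio was 1.38 in 200 bp about the region centre. Directions of motifs that did not pass the threshold turned for GATA (0.829) and MYB (1.03) in 400 bp, for IRF (1.11) and NF-κB (1.12) within GC strata, and for NF-κB (1.10) without chromosome 10. The GC box passed the threshold in 400 bp (odds ratio 1.61) and without chromosome 10 (1.57), RUNX in 400 bp (0.432) and the C/EBP-ATF composite within GC strata (2.80). The causes were not tested. The other 85 values kept their direction and side of the threshold or their range. Means without replicate values limit every difference, and only regions past the authors' threshold were listed.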
